A study of Mus musculus with 8 samples.

Results

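The microRNA processing and silencing machinery was followed through 10 genes, chosen by the gene name that the array design gives their probes: Dgcr8, Xpo5, Dicer1, Tarbp2, Prkra, Eif2c1, Eif2c2, Tnrc6a, Tnrc6b and Tnrc6c. Eif2c1 and Eif2c2 are older names of Ago1 and Ago2. They are 10 of 35019 names on the array, and 12 of its 55681 probes report them. Liver RNA came from mouse pups on the C57BL/6J background, delivered by caesarean at E19.5 and killed 4 h later. One group of 4 samples came from pups with a deletion on the maternal chromosome (called knockout here). The deletion removes the microRNAs from miR-379 to miR-410. The other 4 samples came from wild-type littermates. The paternal copy was left in place in the knockout, so the model depends on imprinting of the locus. Each sample was hybridised to 1 single-colour array. A single slide and scan served all 8 arrays, with wild-type in one slide column and knockout in the other, so column and genotype cannot be told apart.

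MicroRNAs are cut in the nucleus from long transcripts by the Microprocessor, in which Dgcr8 binds the RNA and Drosha cuts it. Exportin 5 carries the hairpin to the cytoplasm, Dicer with its partners Tarbp2 and Prkra cuts out the short duplex, and an Argonaute protein keeps 1 strand as its guide. The GW182 proteins, Tnrc6a, Tnrc6b and Tnrc6c, bind Argonaute and recruit the enzymes that shorten and decap the target transcript. Hepatocytes depend on this route for their microRNAs, and the cluster removed here is one of the largest groups of microRNA genes in placental mammals. The comparison asks whether the transcripts of the machinery differ when the maternal copy of these substrates is deleted. Arrays of this kind measure messenger RNA and carry no information on the amount of protein.

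The substrates deleted on the maternal copy span chromosome 12 from 109709060 to 109743795 (GRCm38.p6). The RefSeq table places 36 hairpins and 71 mature sequences with 64 different seeds there. The seed, bases 2 to 8 of the mature strand, is what Argonaute uses to find its targets. The strands of the hairpins that give the cluster its name are printed to show what the maternal deletion removes. Each stands beside any other strand of the cluster that shares its seed, with the seed in capitals, 5′ to 3′. These short RNAs were not measured by the arrays used here, so how much of them remained in the knockout is not known.
mmu-miR-379-5p: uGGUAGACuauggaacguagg
mmu-miR-1193-5p: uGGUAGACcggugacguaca
mmu-miR-379-3p: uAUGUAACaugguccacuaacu
mmu-miR-411-3p: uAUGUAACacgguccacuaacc
mmu-miR-410-5p: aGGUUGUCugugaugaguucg
mmu-miR-494-5p: aGGUUGUCcguguugucuucuc
mmu-miR-410-3p: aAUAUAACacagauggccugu
Only 7 seeds of the cluster occurred on more than 1 of its strands, each on 2 strands.

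The labels were checked first. Mirg, a noncoding transcript of the chromosomal region of the cluster, was read first. It stood at 2.42 ± 0.05 on the wild-type arrays against -0.29 ± 0.33 on the knockout arrays (SD, n = 4 arrays each). A level here is the log2 signal of a probe minus the array's 75th percentile. The difference of -2.71 (SE 0.15, limma adjusted p = 0.000345) separated the groups completely (-2.65 without replicate 4), and a difference is always knockout minus wild-type. Mirg stayed well above background on all 4 knockout arrays, at 0.153 of the wild-type signal, so it was reduced and not absent. The position of its probe and the deleted span are on different genome builds, so whether the probe lies inside the span was not tested. All 8 hepatocyte markers were well above background, and Alb stood at 10.43 ± 0.14 and 10.38 ± 0.04. Between 58.6% and 66.2% of spots were well above background. Knockout 4 held both Xist (0.12), made by the inactive X of females, and the Y-linked Ddx3y (2.06), which 1 animal does not ordinarily express together. Among wild-type arrays Ddx3y was 2.47, 2.46 and 1.65 in wild-type 1, 2 and 4 and -7.42 in wild-type 3, where Xist (-7.53) was not well above background either, so that array showed neither marker. Xist exceeded background clearly on 3 arrays, all of them knockout, and ran from -7.53 to -6.63 in wild-type and from -6.55 to 1.97 in knockout. Its groups did not overlap, but only by the small gap between wild-type 4 (-6.63) and knockout 3 (-6.55), neither well above background. Since clear Xist signal was confined to knockout arrays, a fit with Xist as a covariate cannot cleanly divide sex from genotype. Whether each array, and those of replicate 4 above all, holds the RNA of 1 separate animal was not tested, so n = 4 counts arrays, and each of the 10 genes is also given without both replicate 4 arrays. In these bulk samples, fewer cells of a type and less RNA per cell cannot be told apart.

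None of the 10 machinery genes passed the test. Over all 23700 genes tested, 0.203% were called (limma adjusted p under 0.05), 0.173% as lower and 0.0295% as higher in knockout. Of single probes 0.0296% were called higher. At a threshold of 0.1 the share of genes was 0.92% (0.705% lower), and again none of the 10 passed. With shares this small, a count of 0 among 10 genes is near the background. Of the 10, 1 had an unadjusted limma p under 0.05, against 13% of all genes (7.37% without replicate 4). Without replicate 4, 5 of all genes were called (0.0211%) and again none of the 10. The smallest adjusted p among the 10 was 0.307 with 8 arrays. Their median difference was -0.0027, beside 0.019 for all genes, and their median absolute difference was 0.10 beside 0.12. The means of 4 genes were higher and of 6 lower in knockout livers, beside 12989 higher and 10711 lower of all 23700 genes.

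The intervals show what sizes of difference the arrays could not exclude. The 95% intervals of the 10 differences reached between 0.15 and 0.41 to either side, with a median of 0.25 beside 0.26 for all genes. All 10 intervals lay within 1 log2 unit of no change, that is inside a doubling or halving, and 8 lay within 0.5, a factor of 1.41. The exceptions to the narrower limit were Ago2 and Tnrc6b, described below. Of all 23700 genes, 22104 had intervals within 1 and 15846 within 0.5. The intervals are not adjusted for the number of genes and count each array as a separate sample. The spread between arrays of a group had a median SD of 0.15 for the 10 genes and 0.16 for all genes. No member spot was saturated or flagged as an outlier, and each probe was printed once per array.

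**Figure D1:**
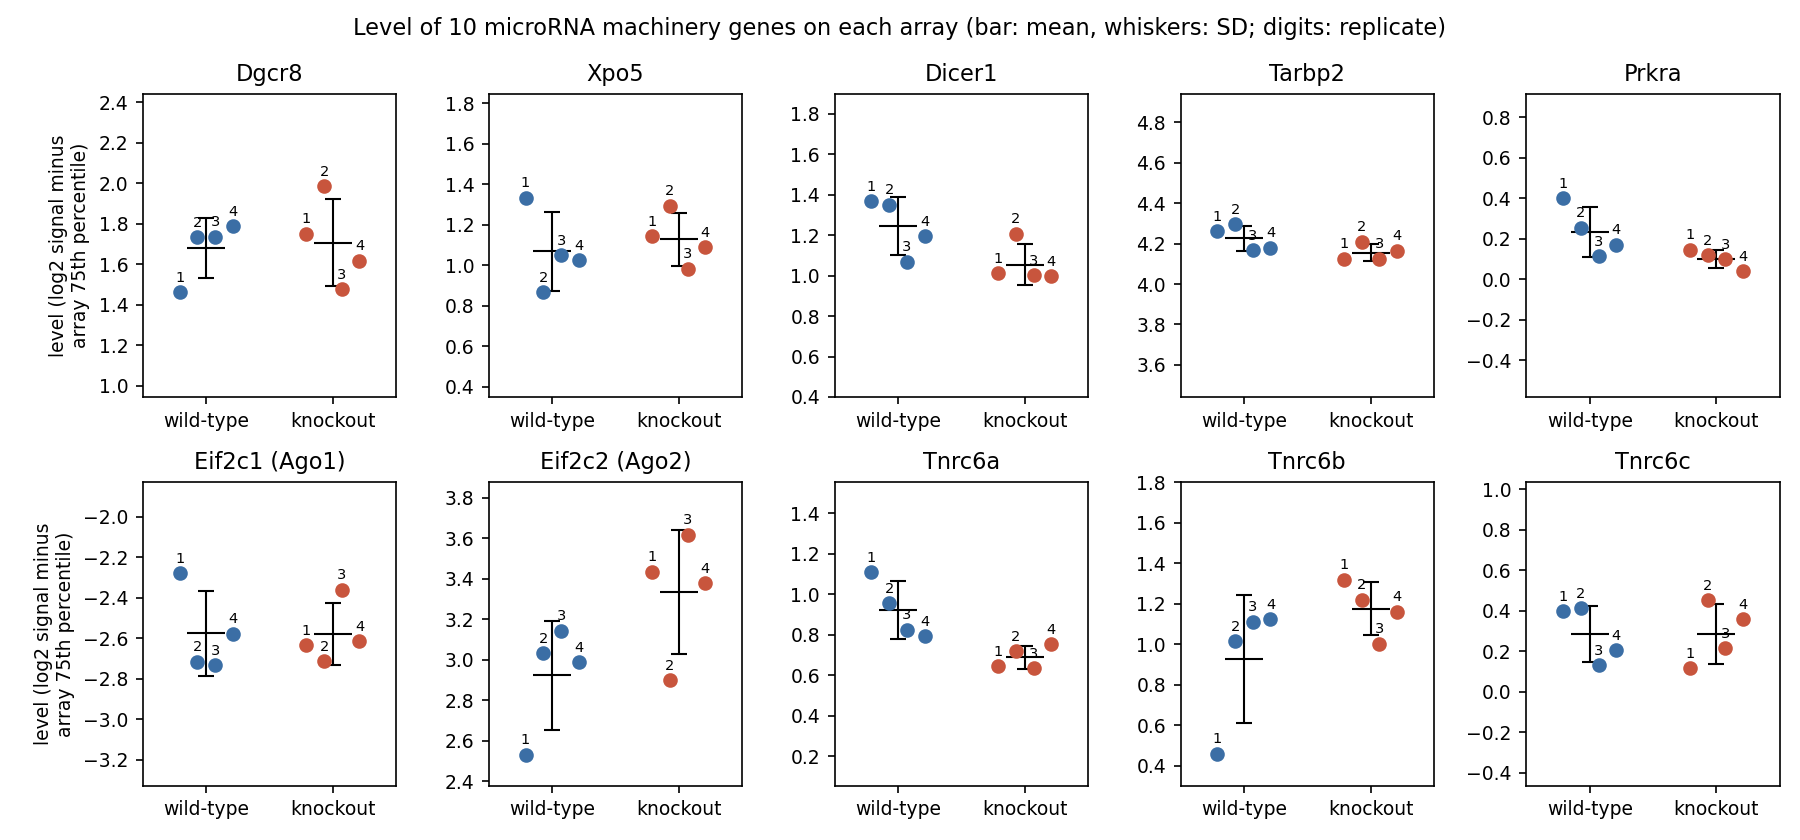
Level of each machinery gene on each array, as log2 signal minus the array's 75th percentile, with wild-type in blue, knockout in red, the replicate number above each point, the mean as a bar and the SD as whiskers; all panels span the same height of 1.5 log2 units. The groups overlap in 9 genes, and in Tnrc6a the knockout arrays (0.64 to 0.75) lie below the wild-type arrays (0.79 to 1.11).

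Transcripts of the nuclear step showed overlapping groups. Dgcr8, read by a probe at chr16:18254226-18254285 (mm9, minus strand), had levels of 1.46, 1.73, 1.74 and 1.79 in wild-type 1 to 4 and of 1.75, 1.99, 1.48 and 1.62 in knockout 1 to 4. Its difference was 0.03 (SE 0.12, limma adjusted p = 0.936), with an interval from -0.26 to 0.31. The lowest and the second lowest array belonged to different groups, wild-type 1 and knockout 3. Without replicate 4 the difference was 0.094, and with Xist as a covariate the estimate turned to -0.26 (limma adjusted p = 0.558). Drosha, its catalytic partner, is named after its values were seen and differed by 0.08 (SE 0.09).

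For the export step, the Xpo5 transcript was read at chr17:46378755-46378814 (mm9, plus strand). Its levels were 1.33, 0.87, 1.05 and 1.02 in the wild-type arrays and 1.14, 1.29, 0.98 and 1.09 in the knockout arrays. Both the highest and the lowest of the 8 values were wild-type. The difference of 0.06 (SE 0.11, limma adjusted p = 0.841) had an interval from -0.20 to 0.32, or from -12.9% to 24.5%, and was 0.056 without replicate 4.

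All 3 genes of the Dicer step had lower means in knockout livers, by amounts that did not pass. Lower means were found in 10711 of all 23700 genes. Dicer1, the enzyme that cuts the hairpin, had levels of 1.37, 1.35, 1.07 and 1.19 in wild-type 1 to 4 and of 1.01, 1.21, 1.00 and 1.00 in knockout 1 to 4. The groups overlapped because knockout 2 stood above wild-type 3 and 4. The difference of -0.19 (SE 0.09, limma adjusted p = 0.416; two-sided exact permutation p = 0.0857) corresponded to a signal change of -12.4%, with an interval from -24.3% to 1.34%. Without replicate 4 it was -0.19 (limma adjusted p = 0.751). The Dicer1 probe lies on the chromosome of the deleted cluster, at chr12:105926064-105926123 (mm9, minus strand), 5.06 Mb from the Mirg probe at 110987569 to 110987628.

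The partners of Dicer were tighter. Tarbp2, the double-stranded RNA-binding protein that steadies Dicer, was measured at chr15:102353974-102354033 (mm9, plus strand), with levels of 4.26, 4.30, 4.17 and 4.18 in wild-type and 4.12, 4.21, 4.12 and 4.16 in knockout livers. It had the narrowest interval of the 10 genes, from -0.22 to 0.07 around a difference of -0.07 (SE 0.06, limma adjusted p = 0.645), and without replicate 4 the difference was -0.090. Prkra, also called PACT, is a second such partner and an activator of the kinase Pkr, read at chr2:76468199-76468258 (mm9, minus strand). Its levels were 0.40, 0.26, 0.11 and 0.17 in wild-type and 0.15, 0.12, 0.10 and 0.04 in knockout livers. The difference of -0.13 (SE 0.08, limma adjusted p = 0.494) was -0.08 without wild-type 1, the highest array, and -0.13 without replicate 4.

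Of the Argonautes, Ago2 gave the largest difference of the 10 genes and Ago1 one of the smallest. Eif2c1 (Ago1) was read by 2 probes. The probe at chr4:126117202-126117261 (mm9, minus strand) was well above background on 1 array, wild-type 4, and was left out of the test. The other, at chr4:126112644-126112703, was well above background on all 8 arrays, with levels of -2.28, -2.71, -2.73 and -2.58 in wild-type and -2.63, -2.71, -2.36 and -2.61 in knockout livers. Ago1 therefore rests on a dim probe, whose scanner signal ran from 65.2 to 111.0. Its difference was -0.0048 (SE 0.12, limma adjusted p = 0.989), with an interval from -0.29 to 0.28, and it was 0.0062 without replicate 4.

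Eif2c2 (Ago2), the Argonaute best known for cutting its target, had levels of 2.53, 3.03, 3.14 and 2.99 in wild-type 1 to 4 and of 3.43, 2.90, 3.62 and 3.38 in knockout 1 to 4, at chr15:72936863-72936922 (mm9, minus strand). Knockout 1, 3 and 4 stood above every wild-type array, and knockout 2 lay below wild-type 2, 3 and 4. The difference of 0.41 (SE 0.18, limma adjusted p = 0.389; two-sided exact permutation p = 0.114) corresponded to a signal change of 32.8%, with an interval from -0.296% to 76.8%. It had the widest interval of the 10 genes. Leaving out wild-type 1 gave 0.28 and leaving out knockout 3 and 4 gave 0.24. Xist as a covariate gave 0.73, although Xist was well above background only on knockout arrays. None of these passed.

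The array holds 3 further probes tied to Ago2 by gene name or by synonym, so this region was read at 4 places along the strand. The second Ago2 probe, 1.16 kb further on at chr15:72935705-72935764, had levels of 1.00, 1.18, 1.23 and 1.20 in wild-type and 1.35, 1.24, 1.28 and 1.31 in knockout livers. Its groups did not overlap, as they did not in 8.92% of all genes (4.09% with knockout above). Its difference was 0.14 (SE 0.08, limma adjusted p = 0.474 over 33778 probes, of which 0.204% were called). The remaining probes are filed under the clone names 2310051F07Rik and 1110029L17Rik, which the RefSeq table gives as synonyms of Ago2. They were not selected by gene name, were found after the values of Ago2 were seen, and lie 7.97 and 10.5 kb from the first probe. Whether they lie within the Ago2 transcript was not tested.

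The clone probe 2310051F07Rik, at chr15:72928888-72928947, had levels of 2.97, 3.08, 3.18 and 3.05 in wild-type and 3.45, 3.18, 3.50 and 3.29 in knockout livers, so that wild-type 3 and knockout 2 all but met. The difference was 0.29 (SE 0.09, limma adjusted p = 0.272). The clone probe 1110029L17Rik, at chr15:72926367-72926426, had levels of 3.12, 3.32, 3.11 and 3.16 in wild-type and 3.43, 3.21, 3.67 and 3.48 in knockout livers. Its groups overlapped through wild-type 2 and knockout 2, and its difference was 0.27 (SE 0.11, limma adjusted p = 0.361). All 4 probes thus had higher means in knockout livers, by 0.14 to 0.41, and none passed. The probes share the same 8 RNA samples and are not separate replicates. Without replicate 4 the 4 differences were 0.41, 0.15, 0.30 and 0.25, with limma adjusted p from 0.714 to 0.784.

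**Figure D2:**
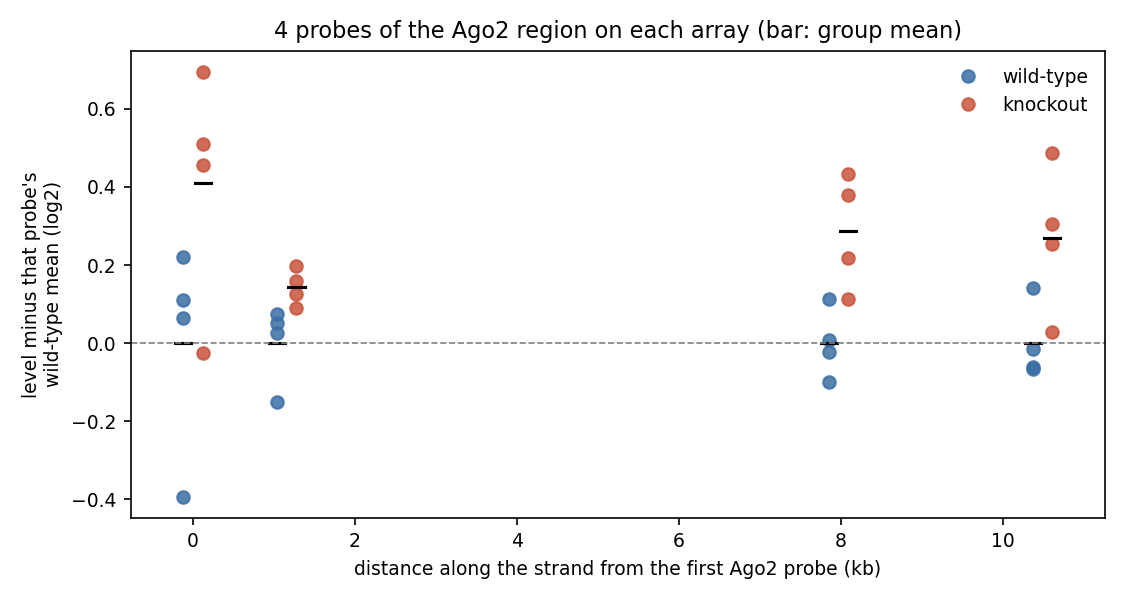
Levels of 4 probes of the Ago2 region minus each probe's wild-type mean (log2), against distance along the strand from the first probe (kb), with wild-type arrays in blue, knockout arrays in red and group means as bars. The knockout means lie 0.41, 0.14, 0.29 and 0.27 above the wild-type means, and knockout 2 is the lowest knockout array at each of the 4 positions.

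The GW182 family held both directions. Tnrc6a, the founding GW182 protein, had levels of 1.11, 0.96, 0.83 and 0.79 in wild-type 1 to 4 and of 0.65, 0.72, 0.64 and 0.75 in knockout 1 to 4, at chr7:130338627-130338686 (mm9, plus strand). It was the only one of the 10 genes whose groups did not overlap, as they did not in 8.92% of all genes (4.82% with knockout below and 4.09% above). Its difference of -0.23 (SE 0.09, limma adjusted p = 0.307) corresponded to a signal change of -14.9%. The two-sided exact permutation p was 0.0286, which no split of 8 arrays into 4 and 4 can undercut. Without replicate 4 the difference was -0.30 (limma adjusted p = 0.636). The summed stellate and fibroblast markers (7 of 7 kept) ran from 141 to 170 in knockout and from 188 to 213 in wild-type. The summed skeletal muscle markers (4 of 6 kept) ran from 0.340 to 0.451 in knockout and from 0.731 to 2.18 in wild-type. Sums are in multiples of the 75th percentile signal. Both sums separated the same groups in the same direction as Tnrc6a, although 1 of the 4 muscle genes had a higher mean in knockout. Summed pancreas markers (5 of 8 kept) ran from 16.1 to 25.51 in knockout and from 25.45 to 112.6 in wild-type, with a median difference of -1.45. Of the 5 pancreas genes, 1 had a higher mean in knockout. The part of these 3 lists in the Tnrc6a value was not tested. Sums of the hepatocyte, erythroid, macrophage, endothelial and cholangiocyte markers overlapped between the groups.

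Tnrc6b had a higher mean in knockout livers and did not pass. At chr15:80759793-80759852 (mm9, plus strand) its levels were 0.46, 1.02, 1.11 and 1.12 in wild-type 1 to 4 and 1.32, 1.22, 1.00 and 1.16 in knockout 1 to 4. Wild-type 1 lay far under the other 7 arrays, which ran from 1.00 to 1.32. The difference of 0.25 (SE 0.15, limma adjusted p = 0.514) was 0.09 without wild-type 1 and 0.03 with Xist as a covariate. It was 0.44 without wild-type 3 and 4, 0.34 without knockout 3 and 4 and 0.32 without replicate 4, and passed in none of these. Tnrc6c, at chr11:117624691-117624750 (mm9, plus strand), had levels of 0.40, 0.41, 0.13 and 0.21 in wild-type and 0.12, 0.45, 0.22 and 0.36 in knockout livers. Its group means were nearly equal, with a difference of -0.00064 (SE 0.10, limma adjusted p = 0.998) and an interval from -0.23 to 0.23 (-0.052 without replicate 4).

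**Figure D3:**
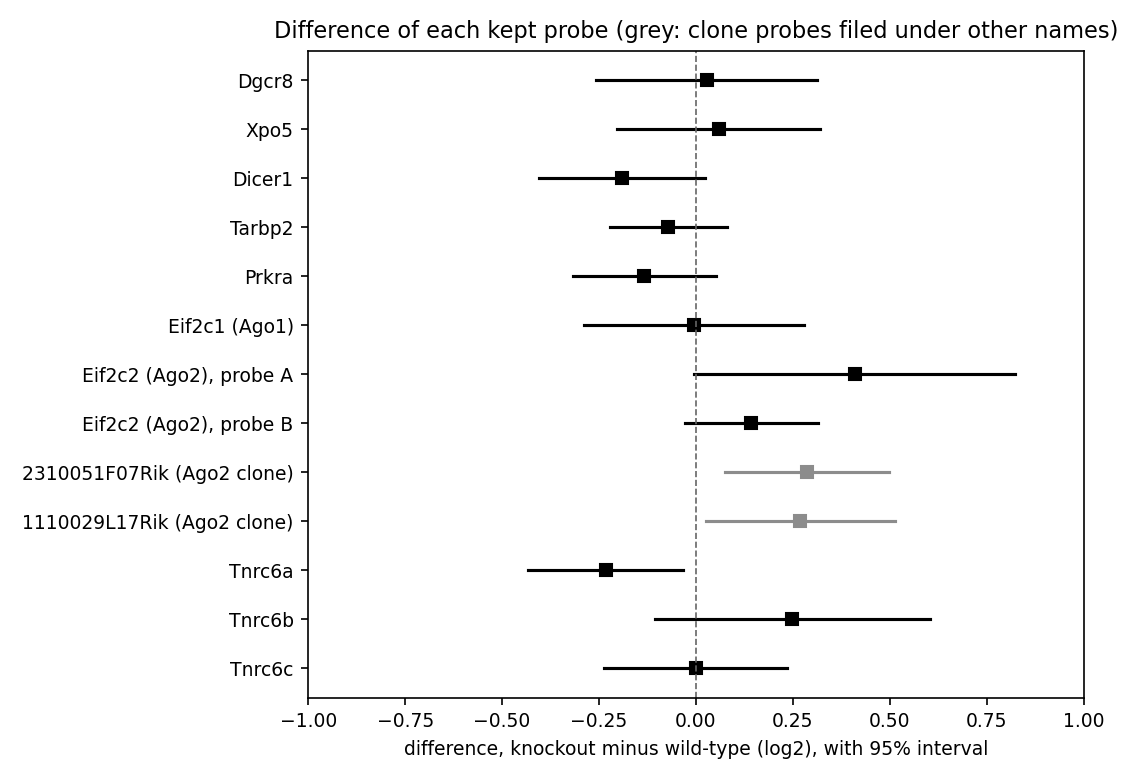
Difference of each of the 11 kept machinery probes (black) and of the 2 clone probes tied to Ago2 by synonym (grey), knockout minus wild-type on the log2 scale, with 95% intervals from limma over all kept probes; probes A and B of Ago2 are those at 0 and 1.16 kb. The intervals of Tnrc6a and of both clone probes leave out 0 before adjustment, and none passed after it.

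Wild-type 1 was often at the edge of its group. It was the highest or lowest of the 4 wild-type arrays in 8 of the 10 genes, as it was in 70.4% of all genes, and it was high in Xpo5, Dicer1, Prkra, Ago1 and Tnrc6a and low in Dgcr8, Ago2 and Tnrc6b. The other wild-type arrays held that place in 3 (wild-type 2), 6 (wild-type 3) and 3 (wild-type 4) of the 10, beside 48.0%, 47.8% and 33.8% of all genes. Its 75th percentile signal was also the highest of the 8 arrays, at 538.5 beside 427.7 to 523.2. Its summed endothelial markers were 57.7, beside 42.4 to 48.2 on the other arrays, and its summed macrophage markers 309.9 beside 225.1 to 263.1. Its summed erythroid markers were 2634 beside 3198 to 3571, and its summed hepatocyte markers 5410 beside 5793 to 6430. The part of these in the machinery values was not tested.

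The rest of the pathway was read through 57 genes in 5 lists. All 57 were measured and none passed (0 higher, 0 lower), beside the 0.203% of all genes. Means were higher in knockout for 42 (73.7%, beside 54.8% of all genes) and lower for 15, with a median difference of 0.05 beside 0.019 over all genes. Of the 57, 5 had an unadjusted limma p under 0.05 (8.77%, beside 13% of all genes), and the groups did not overlap in 4 (7.02%, beside 8.92%).

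The smallest p-values of the 57 belonged to Mov10 and Adar. Adar, which edits double-stranded RNA including some microRNA precursors, had levels of 2.71 ± 0.23 and 2.06 ± 0.26 in wild-type and knockout (SD, n = 4 each). Its difference of -0.65 (SE 0.16, limma adjusted p = 0.145) was the largest of the 57 in size, and its arrays ran from 2.49 to 3.01 and from 1.79 to 2.42. Mov10, an RNA helicase that associates with Argonaute, went from 3.18 ± 0.01 to 2.89 ± 0.07, a difference of -0.29 (SE 0.06, limma adjusted p = 0.124). Its arrays ran from 3.16 to 3.19 in wild-type and from 2.80 to 2.97 in knockout. Mov10 passed with normexp background correction and quantile normalization together (-0.30, limma adjusted p = 0.0453) and in no other setting tried. Without replicate 4 the differences of Adar and Mov10 were -0.64 and -0.28.

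In the nuclear list, 8 of 9 genes had higher means in knockout, the helicase Ddx5 by 0.11 (SE 0.09) and Khsrp, which binds the terminal loops of some precursors, by 0.09 (SE 0.08). In the list for export, loading and the other Argonautes, 7 of 11 means were higher. Ipo8, an importin that binds Argonautes, differed by -0.19 (SE 0.09) and Ptges3, an Hsp90 co-chaperone, by 0.13 (SE 0.07). Ago3 and Ago4, named after their values were seen, differed by 0.14 (SE 0.15) and -0.15 (SE 0.10). The chaperone Hsp90aa1, also named after its values were seen, had the highest difference of the 57 at 0.44 (SE 0.24, limma adjusted p = 0.465), with overlapping groups, and 0.27 without replicate 4.

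The enzymes that act downstream of GW182 gave 12 of 14 higher means in the deadenylation list. Cnot7, a catalytic subunit of the CCR4-NOT complex, went from -1.15 ± 0.13 to -0.79 ± 0.12, a difference of 0.36 (SE 0.09, limma adjusted p = 0.168). Its groups did not overlap. Cnot6l, another catalytic subunit, differed in the opposite direction by -0.16 (SE 0.07), and its groups did not overlap either. Groups did not overlap in 8.92% of all genes. The scaffold Cnot1 differed by 0.13 (SE 0.07). In the decapping list, 9 of 12 means were higher. Dcp1b, an activator of decapping, differed by -0.34 (SE 0.11, limma adjusted p = 0.230), Dcp1a by 0.10 (SE 0.07) and Eif4enif1 by 0.15 (SE 0.09).

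Genes that govern precursors and their turnover gave 6 of 11 higher means and no unadjusted p under 0.05. Lin28b, which blocks the maturation of let-7, differed by 0.24 (SE 0.15), Tut4, which adds uridines to precursors, by 0.22 (SE 0.14), and Fxr2, a relative of the fragile X protein, by -0.10 (SE 0.07). The limma adjusted p of all 11 was 0.519 or more.

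**Figure D4:**
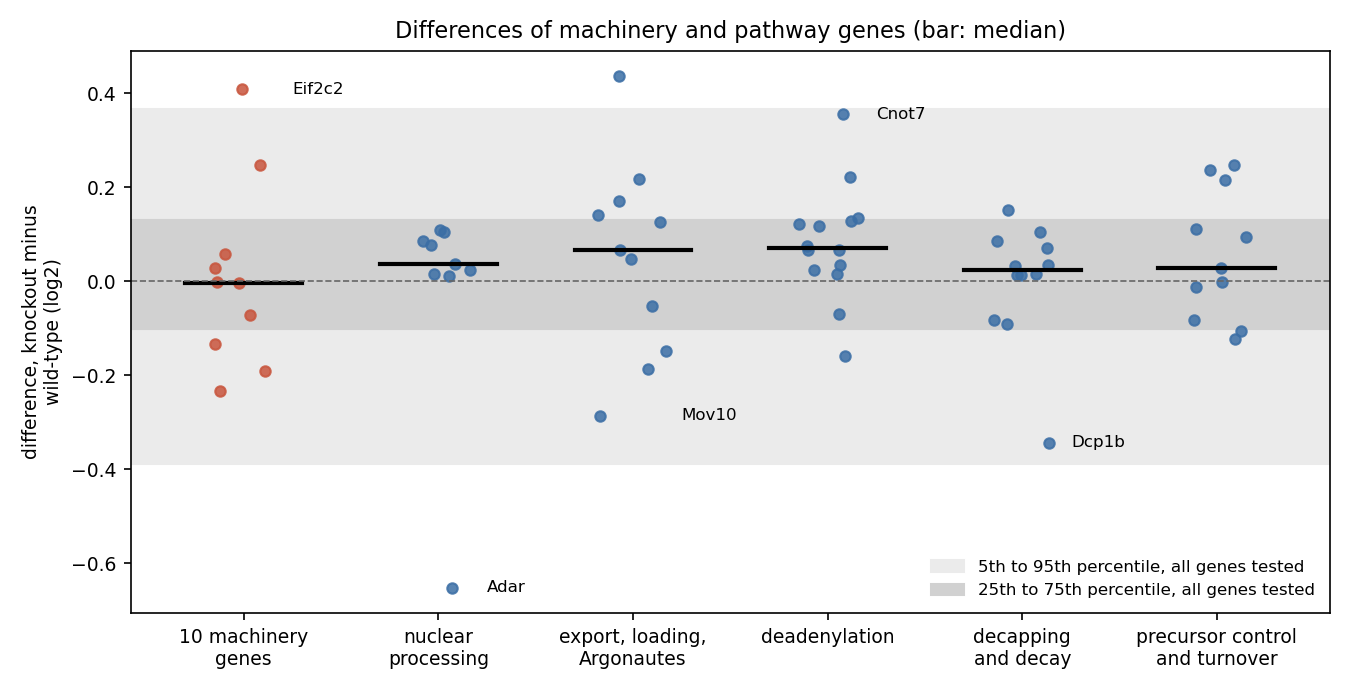
Difference of each of the 10 machinery genes (red) and 57 other pathway genes (blue), knockout minus wild-type on the log2 scale, by list, with list medians as bars over bands for the 5th to 95th and the 25th to 75th percentile of all 23700 genes. Ago2 (0.41) and the unlabelled Hsp90aa1 (0.44) lie above the upper limit of the wider band (0.37) and Adar (-0.65) below its lower limit (-0.39), and no gene shown passed the test.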

How the data were processed

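The authors deposited 1 scanner text per array, holding spot intensity on a linear scale with coordinates on mm9 per the file headers. The submitters' processing notes name Agilent Feature Extraction 10.10. A value table that the authors deposited holds log2 values, which tracked each array's own log2 median signal (r from 0.99995 to 0.99999). Its normalization between arrays is not given in the sources used here. Processed signals were put on the log2 scale here, and the 75th percentile of the 55681 non-control probes was subtracted within each array. Outlier-flagged spots were left out, and 87 probes flagged on an array were dropped. A probe was kept if well above background on at least 4 of 8 arrays (33778), and a gene was its brightest kept probe. Names were updated by RefSeq accession for 27235 probes (GRCm38.p6 table, names and sequences only). Exon and UTR positions were not assigned, since no mm9 annotation was used here.

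Groups were compared with limma 3.58.1 (R 4.3.3), two-sided, with Benjamini-Hochberg adjustment over all genes and a threshold of 0.05. The same fit was run on simulated independent arrays only as a check of the code. Its power at the sizes seen in the 10 genes is not reported here. The labels call the samples biological replicates. Wild-type arrays filled one column of the slide and knockout arrays the other, so column and genotype cannot be told apart. Named genes were the 10 members, Mirg, Xist, Ddx3y, Alb and up to 3 genes of each pathway list with the smallest p. Drosha, Ago3, Ago4 and Hsp90aa1 were added after their values were seen. The members and lists were chosen with earlier results of these data known. Alternatives were normalization, background correction, the deposited table, filter, probe rule, variance model, replicate block, sex-linked covariates, a looser threshold and left-out arrays.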

Additional observations from a re-analysis of the deposited data

Results flagged for a closer look

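Among 56 groups of 4 arrays checked over the genes and probes described, 3 had 1 array far from the other 3, where chance gives about 1 in 20. Wild-type 1 stood at 1.46 in Dgcr8, below the rest of its group (1.73 to 1.79). The same array stood at 0.46 in Tnrc6b, below 1.02 to 1.12. Knockout 2 stood at 1.21 in Dicer1, above 1.00 to 1.01 in the other knockout arrays.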

How the results depend on the processing

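In 22 other settings, and with a threshold of 0.1, 0 of the 10 machinery genes passed in either direction. Nor did any of their probes in the same settings, apart from the mean of a gene's probes, where single probes were not tested. The 220 values of single genes under those settings had limma adjusted p from 0.170 upward, and 19 of them changed sign. The sign of Dgcr8 turned with Xist (-0.26) or Ddx3y (-0.025) as a covariate, and that of Xpo5 with Xist (-0.097). Xist was well above background only on knockout arrays, so its fits cannot cleanly divide sex from genotype. Ago1 turned with Xist (0.24), Ddx3y (0.043) and without replicate 4 of both groups (0.0062), and Tnrc6c with the deposited value table (0.016) and Ddx3y (0.021). With single arrays left out, differences ran from -0.065 to 0.11 for Dgcr8, -0.0090 to 0.15 for Xpo5, -0.078 to 0.094 for Ago1 and -0.056 to 0.055 for Tnrc6c. The other 6 genes kept their direction throughout.

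Among pathway genes, 1 was lower with normexp and quantile normalization together. Over all genes the numbers lower and higher were 64 and 14 with quantile normalization, 118 and 14 with normexp, 112 and 21 with both, 124 and 21 in the deposited table, and 128 and 28 with a trended robust variance. They were 73 lower when all 8 arrays had to be well above background, 22 and 0 with no filter, 17 and 2 with the replicate block, 11 and 3 with Xist, 79 and 12 with Ddx3y, and 167 and 51 at a threshold of 0.1. Left-out pairs gave 5 and 0 without replicate 4, 11 and 2 without wild-type 3 and 4, and 9 and 3 without knockout 3 and 4. Leaving out 1 array gave 14 to 74 lower and 0 to 23 higher. Same-numbered arrays of the 2 groups deviated with correlations from -0.11 to 0.069. Only the replicate 4 arrays (0.069) were each other's best match. Such correlations cannot settle whether the numbers pair the samples. Precision is limited by having 4 arrays in each group.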
